A study of Mus musculus with 8 samples.

Results

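The thiazide-sensitive sodium-chloride cotransporter gene Slc12a3, its neighbour Herpud1 and the epithelial sodium channel gene Scnn1g were followed through 5 ATAC-seq peaks of 6425 in mouse kidney tubuloids. The 5 were all 4 rows of the deposited table in a window of 50000 bp on chromosome 8 that runs from the last part of Slc12a3 to Herpud1, and the single row assigned to Scnn1g on chromosome 7. They were chosen by position and gene name, but with the values of the myoglobin and vehicle libraries at these peaks known, so the difference between the groups is described below for each of the 5 without a test.

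ATAC-seq cuts accessible DNA with the transposase Tn5, so a higher peak value marks DNA that was cut more often. Tubuloids are epithelial structures grown in Matrigel, here from digested kidney cortex of wildtype mice. The vehicle group held 4 libraries and the myoglobin group 4, each prepared from 50000 cells after 12 h, and myoglobin, the haem protein of muscle, was the agent used to injure the cells. The text of the series names 4 mice, no label ties a library to a mouse, and any p-value below therefore measures only the spread between these libraries, which may be technical.

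Sodium left in the tubular fluid is reclaimed in the distal nephron in consecutive steps. In the distal convoluted tubule the cotransporter encoded by Slc12a3 takes up sodium with chloride, under the control of the WNK and SPAK/OSR1 kinases. In the connecting tubule and collecting duct the epithelial sodium channel, built of the alpha, beta and gamma subunits encoded by Scnn1a, Scnn1b and Scnn1g, takes up sodium under the control of aldosterone, acting through the mineralocorticoid receptor and the kinase SGK1. Herpud1 encodes a membrane protein of the endoplasmic reticulum that takes part in the removal of misfolded proteins and is induced when the unfolded protein response is active.

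The Herpud1 and Scnn1g peaks lay over promoters, and Slc12a3 had no peak there. The parts of the Herpud1 and Scnn1g promoters that lay under the peaks and before the transcript starts are shown with the bases before Slc12a3, as the letters that the peak values refer to and, for Slc12a3, as the contrast without a peak. All 3 are from RefSeq (GRCm38.p6, the assembly that mm10 names), plus strand, 5′ to 3′, with matches on either strand to a CCAAT box, a GC box or an element of the unfolded protein response in capitals.
Herpud1, chr8:94386290-94386428: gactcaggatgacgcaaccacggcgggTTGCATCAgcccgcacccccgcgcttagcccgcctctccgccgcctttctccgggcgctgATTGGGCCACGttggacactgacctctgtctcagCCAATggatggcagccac
Scnn1g, chr7:121734229-121734406: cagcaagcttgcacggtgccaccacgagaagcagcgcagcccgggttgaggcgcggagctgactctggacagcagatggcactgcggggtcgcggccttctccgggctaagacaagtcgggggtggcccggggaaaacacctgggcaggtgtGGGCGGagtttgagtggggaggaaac
Slc12a3, chr8:94328958-94329108: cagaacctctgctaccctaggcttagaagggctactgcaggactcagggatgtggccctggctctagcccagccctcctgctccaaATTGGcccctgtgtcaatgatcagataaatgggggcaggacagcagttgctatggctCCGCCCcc

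In the Herpud1 stretch, the run ATTGGGCCACG matched the endoplasmic reticulum stress element II (ATTGG and CCACG with 1 base between them, searched on both strands like the other motifs), which ATF6 and XBP1 are known to bind. Its first base lay 52 bp before the start site. This motif was present in 12 of 32851 RefSeq promoter windows of the same 300 bp (0.0365%). The run TTGCATCA matched, on the minus strand, the element TGATGNAA that ATF4 and its C/EBP partners are known to bind, present in 3.97% of windows. CCAAT boxes (CCAAT), of which 1 overlaps the stress element, were present in 37.4% of windows.

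The Scnn1g stretch held a GC box (GGGCGG), found in 35.7% of windows, and a further GC box lay outside the peak. A glucocorticoid or mineralocorticoid receptor palindrome (AGAACA and TGTTC with 3 bases between them, present in 0.0487% of windows) was not in the 300-bp window of any of the 3 genes. An antioxidant response element (TGACNNNGC, in 12.4% of windows) matched in the Herpud1 window, outside the printed stretch. A TATA box (TATAAA, in 13.6% of windows) matched in the Slc12a3 window, also outside the printed stretch. AP-1 and E box motifs were searched and had no match in the 3 windows. The windows differed in CpG number, with 29 at Herpud1, 18 at Scnn1g and 4 at Slc12a3, against a median of 7 over all windows. Their GC content was 68.3%, 64.7% and 60.3%, above the median of 52.7% in each case. A match is a description of letters, and its absence says only that the letters are not in the window.

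Within Slc12a3 the 2 peaks lay close together near the end of the gene, and their myoglobin means stood on opposite sides of their vehicle means. RefSeq places Slc12a3 on mm10 chromosome 8 from 94329109 to 94366222. What is called the inner peak here ran from 94363424 to 94363560 (137 bp), and the end peak from 94365575 to 94365822 (248 bp), separated by 2014 bp. The end peak stopped 400 bp before the end of the gene span. The deposited table assigned no gene to either, and whether they are exonic, intronic or in a UTR was not analysed here. No peak in the table lay closer to the start of the Slc12a3 span than the inner peak, 34315 bp away.

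At the end peak, the values in vehicle replicates 1 to 4 were 3, 4, 10 and 4, and those in myoglobin replicates 1 to 4 were 23, 34, 24 and 19. Every myoglobin library was above every vehicle library, and vehicle replicate 3 was the highest of its group. The mean went from 5.25 ± 3.20 (SD, n = 4) to 25 ± 6.38 (SD, n = 4), a ratio of 4.76, and the difference on the log2(value + 1) scale was 2.14 ± 0.32 (SE from the fit over all peaks). In vehicle the peak was higher than 3.88% of all peaks, and in myoglobin higher than 74.3%. Its difference was the 8th highest of 6425.

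The depth behind these values was low, and it differed with treatment. Vehicle libraries held an estimated 130622 to 200712 reads in peaks and myoglobin libraries 67624 to 123440. At the end peak, the estimated reads were 4, 6 or 7, 10, and 5 or 6 in vehicle replicates 1 to 4, and 23, 22, 13 and 18 in myoglobin replicates 1 to 4. Myoglobin libraries thus gave more reads at this site from shallower libraries. Summed over libraries, 76 reads against about 26 gave a ratio of 4.96 after correction for depth, with an exact binomial 95% interval of 3.14 to 8.08. This interval, like the others below, covers counting error alone and takes each read as independent. It is not a test, since the peaks were chosen with this contrast known. The same holds for the rank of the difference given above. Whether PCR copies of a molecule were removed before counting is not given in the sources used here.

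At the inner peak the values were 5, 14, 9 and 10 in vehicle replicates 1 to 4 and 7, 2, 4 and 8 in myoglobin replicates 1 to 4. The groups overlapped, and the 2 lowest values were those of myoglobin replicates 2 and 3, the shallowest libraries, where they stood for 1 and 2 estimated reads. The mean was 9.5 ± 3.7 in vehicle and 5.25 ± 2.75 in myoglobin (SD, n = 4 each), with a log2 difference of -0.80 ± 0.41 (SE). Without those libraries the difference was -0.23. The depth-corrected read ratio was 0.588 (0.324 to 1.02).

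As the plot of both Slc12a3 peaks shows, their balance differed between the groups. The end peak made up 37.5%, 22.2%, 52.6% and 28.6% of the summed value of both in vehicle replicates 1 to 4, and 76.7%, 94.4%, 85.7% and 70.4% in myoglobin replicates 1 to 4. The groups did not overlap, with means of 35.2% ± 13.2 and 81.8% ± 10.5 (SD, n = 4 each). This share contains the end peak and so largely restates its difference. In myoglobin replicates 2 and 3 it also rests on inner values of 1 and 2 estimated reads. The sum itself was 14.8 ± 4.99 in vehicle and 30.3 ± 4.03 in myoglobin. The mean difference, myoglobin minus vehicle, was 19.75 at the end peak and -4.25 at the inner peak, where the groups overlapped. These libraries are bulk DNA, in which a larger share of distal cells and a change within cells cannot be told apart.

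**Figure D1:**
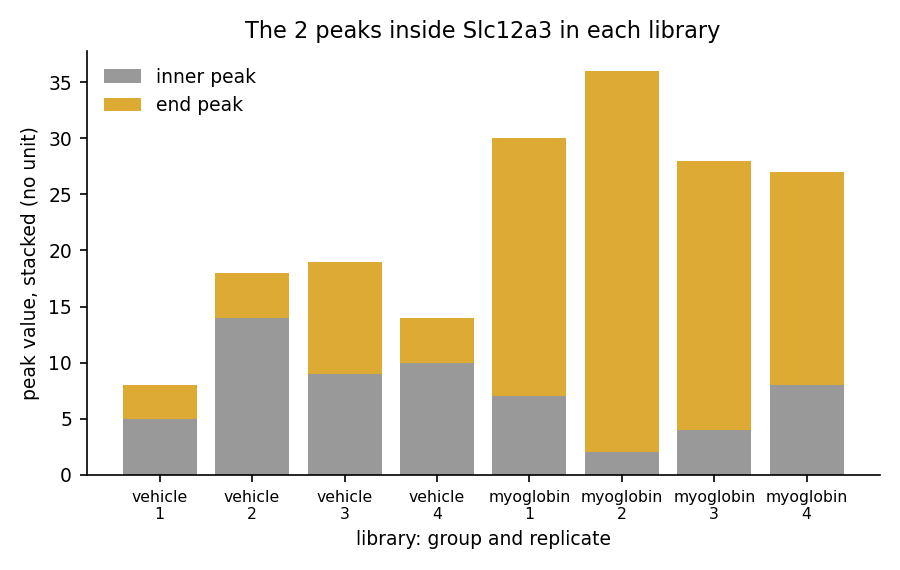
Stacked values of the inner peak (grey) and the end peak (yellow) of Slc12a3 in each of 8 libraries, with the group and replicate on the x axis and the scaled peak value, which has no unit, on the y axis. The end peak is 22.2% to 52.6% of the bar in vehicle and 70.4% to 94.4% in myoglobin.

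Between Slc12a3 and Herpud1, a peak at 94377715 to 94377943 lay 43 bp by its centre from the start site of a long non-coding RNA gene, for which the table gives no symbol and RefSeq has Gm15889 with the same end. Its values were 16, 15, 21 and 9 in vehicle and 15, 20, 13 and 13 in myoglobin (replicates 1 to 4). The groups lay over each other, with a mean of 15.3 in each (SD 4.92 and 3.30, n = 4 each) and a log2 difference of 0.03 ± 0.27 (SE). Its depth-corrected read ratio was 0.998 (0.681 to 1.45). This peak lay 11892 bp from the end peak of Slc12a3.

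The Herpud1 promoter peak, at 94386290 to 94386567 (278 bp), had its centre 9 bp from the start site and lay 20467 bp from the end peak of Slc12a3. Its values were 21, 18, 21 and 21 in vehicle and 24, 26, 28 and 26 in myoglobin (replicates 1 to 4). All 4 myoglobin libraries were above all 4 vehicle libraries, and the values within a group were close. The mean was 20.3 ± 1.5 in vehicle and 26 ± 1.63 in myoglobin (SD, n = 4 each), a ratio of 1.28, with a log2 difference of 0.35 ± 0.21 (SE).

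That SE is larger than the spread of the 8 Herpud1 values alone would give, because the fit takes most of its variance from all peaks (78.5 prior degrees of freedom, where 8 libraries in 2 groups give 6). The estimated 108 vehicle and 81 myoglobin reads gave a ratio of 1.27 (0.943 to 1.71) after correction for depth. Groups that did not overlap, with myoglobin higher, were found at 1.45% of all 6425 peaks (and with myoglobin lower at 1.59%), and at 2 of the 5 described here, the Herpud1 and Slc12a3 end peaks. Since this contrast took part in choosing the 5, nothing is read from that count.

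The Scnn1g promoter peak, on chromosome 7 at 121734226 to 121734406 (181 bp), had its centre 163 bp from the start site. Its values were 13, 14, 23 and 14 in vehicle and 22, 24, 19 and 21 in myoglobin (replicates 1 to 4). The groups overlapped through vehicle replicate 3, at 23, while the other vehicle libraries were below all myoglobin libraries. The mean was 16.0 ± 4.69 in vehicle and 21.5 ± 2.08 in myoglobin (SD, n = 4 each), a ratio of 1.34, with a log2 difference of 0.44 ± 0.24 (SE), and 0.61 without vehicle replicate 3. The depth-corrected read ratio was 1.39 (0.995 to 1.94), from 68 myoglobin and about 83 vehicle reads.

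Scnn1b, the beta subunit gene, starts 96556 bp beyond the end of Scnn1g and the peak nearest to its start was 66420 bp away. No row was assigned to Scnn1a or Scnn1b. The gamma subunit was thus the only channel subunit gene with an assigned peak. Vehicle replicate 3 had the highest or joint highest vehicle value at 4 of the 5 peaks. At Herpud1 it tied with vehicle replicates 1 and 4 at 21. How often this library is highest over all peaks was not worked out, so nothing is read from that count.

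**Figure D2:**
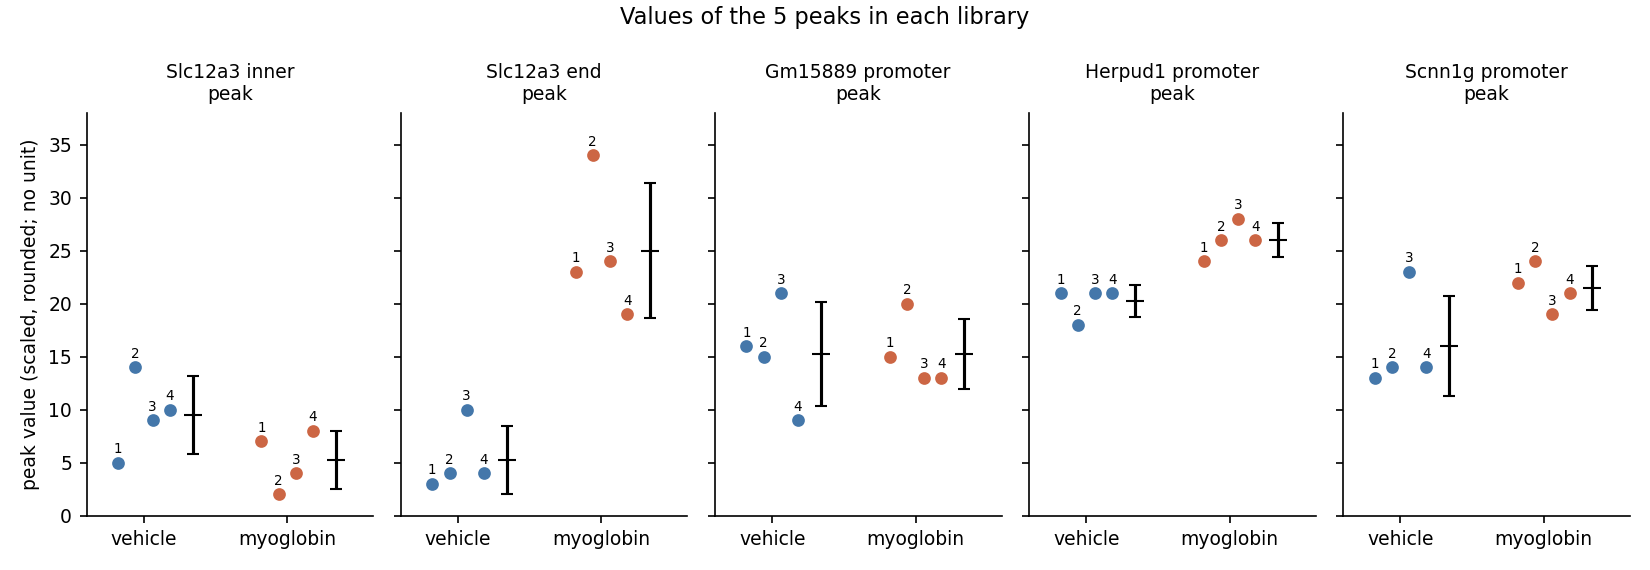
Value of each of the 5 peaks in every library, with the group on the x axis and the scaled peak value, which has no unit, on the y axis. Points are libraries labelled by replicate, and bars are mean ± SD (n = 4). The Slc12a3 end peak sits at 3 to 10 in vehicle and 19 to 34 in myoglobin, the Herpud1 peak at 18 to 21 and 24 to 28, and the other 3 overlap between groups.

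Per 100 bp of peak, the vehicle levels ran from Scnn1g (8.84 ± 2.59) through Herpud1 (7.28 ± 0.54), the inner Slc12a3 peak (6.93 ± 2.7) and Gm15889 (6.66 ± 2.15) to the end peak of Slc12a3 (2.12 ± 1.29). The first 4 levels lay within 1 SD of their neighbours in that order, and the end peak stood below them. The median over all peaks was 7.75. In myoglobin the order was Scnn1g (11.9 ± 1.15), the end peak of Slc12a3 (10.1 ± 2.57), Herpud1 (9.35 ± 0.59), Gm15889 (6.66 ± 1.44) and the inner peak of Slc12a3 (3.83 ± 2.01), where the first 3 again lay within 1 of the larger SD of each neighbouring pair. With myoglobin the end peak of Slc12a3 thus reached the level of the 2 coding promoters.

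The chromatin around these sites showed no difference of the size seen at the end peak. Within 500000 bp of the chromosome 8 peaks there were 11 other peaks, with log2 differences from -0.21 to 0.29 and a median of 0.01. None passed an adjusted p of 0.05 by limma, and 0 had an unadjusted p under 0.05. The nearest on either side lay outside the window, at the promoter of the nucleoporin gene Nup93, 148890 bp before the inner peak (8.25 ± 3.77 in vehicle, 7.5 ± 2.65 in myoglobin), and at Rspry1, 215122 bp beyond the Herpud1 peak (32.3 ± 5.56 and 29.0 ± 6.98). The promoter of Mt1, a metallothionein gene known to respond to metals and glucocorticoids, was at 17.5 ± 2.38 in vehicle and 17.3 ± 4.11 in myoglobin, a log2 difference of -0.04 ± 0.25 (SE). The extremes were a peak 7818 bp from Pllp (0.29) and one 5723 bp from Cx3cl1 (-0.21).

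Around Scnn1g there were 5 other peaks within 500000 bp, with log2 differences from -0.54, at a peak inside Cog7, to 0.14, at Usp31. The median was -0.02, and 0 passed by limma, with 0 at an unadjusted p under 0.05. The Usp31 peak, 26592 bp before Scnn1g, was the nearest on that side, and the lowest one, inside Cog7, was the nearest on the other.

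**Figure D3:**
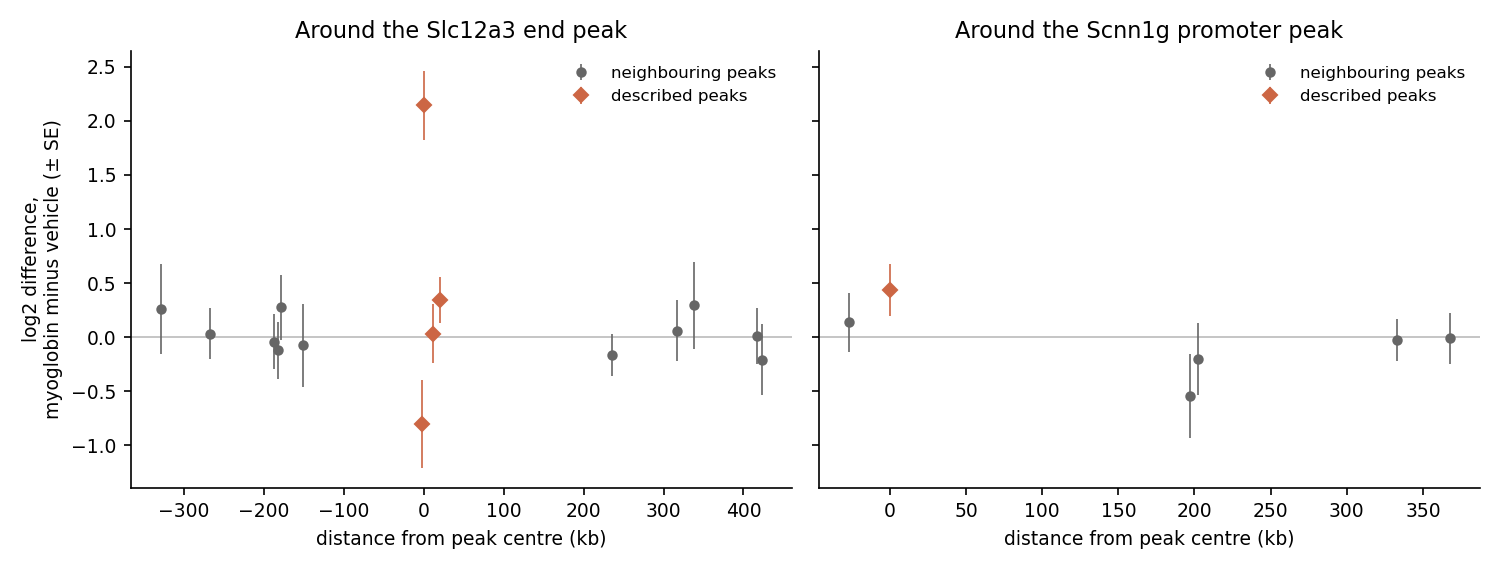
Log2 difference, myoglobin minus vehicle, with its SE (y axis), against the distance in kb from the centre of the Slc12a3 end peak (left) or of the Scnn1g promoter peak (right). Diamonds are the 5 described peaks and circles the other peaks within 500000 bp. The end peak stands at 2.14 and the circles lie between -0.54 and 0.29.

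The peaks most alike in pattern were found by Pearson's r of log2(value + 1) over the 8 libraries, among peaks with a mean of at least 5. For the end peak of Slc12a3 these were a peak of Lrp8 (r = 0.986), which encodes an apolipoprotein E receptor, a peak inside Hs3st4 (r = 0.960), which encodes a heparan sulfate sulfotransferase, and a peak of the olfactory receptor gene Olfr1423 (r = 0.954). The Lrp8 peak went from 41.0 to 59.3, the Hs3st4 peak from 1.5 to 27.8 and the Olfr1423 peak from 2.50 to 18.5. These values of r come from 8 points in 2 treatment groups and partly restate the difference between the groups. Like those below, they are also the highest of many compared, so a high r is reached by selection as well. The Gm15889 peak, with equal group means, still reached 0.915.

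For Herpud1 the most alike were a peak inside Plxna1 (r = 0.938), the Lcorl promoter peak (r = 0.937) and a peak assigned to Psapl1 (r = 0.928). For Scnn1g they were peaks of Zw10 (r = 0.984), Zfp341 (r = 0.940) and Dusp7 (r = 0.932). For the inner peak of Slc12a3 they were Srd5a3 (r = 0.937), Rassf8 (r = 0.934) and Aff1 (r = 0.929), and for the Gm15889 peak Slc16a13 (r = 0.915), Gna12 (r = 0.902) and a peak inside Mark2 (r = 0.901).

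No gene of the pathways around the 3 coding genes passed the test. By limma with Benjamini-Hochberg adjustment over all peaks, 16 of 6425 peaks (0.249%) had an adjusted p under 0.05, 13 higher (0.202%) and 3 lower (0.0467%) with myoglobin. Of 63 peaks at 59 genes in 6 lists, 0 passed (lowest adjusted p 0.565), and 5 (7.94%) had an unadjusted p under 0.05, against 7.60% of all peaks. In 3 of the 63 the groups did not overlap, against 3.04% of all peaks. The median log2 difference over the 63 was -0.06, and over all peaks -0.02. Only 59 of 164 listed symbols had an assigned peak. The share ran from 3 of 26 collecting duct symbols to 21 of 36 symbols of the unfolded protein response. A listed gene without an assigned peak can still have one over its promoter, as Dnajb11 had.

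Kinase control of the cotransporter had peaks at 4 of 13 listed symbols, with a median log2 difference of 0.08 and 2 values above 0. Cab39l, which encodes a scaffold protein that activates the kinases SPAK and OSR1, stood at 13, 15, 14 and 12 in vehicle and 24, 23, 17 and 21 in myoglobin (replicates 1 to 4). The groups did not overlap, but the log2 difference of 0.61 ± 0.25 (SE) did not pass (limma adjusted p = 0.565). Oxsr1, the OSR1 kinase gene itself, was at 28.8 ± 4.03 in vehicle and 25.5 ± 1.91 in myoglobin, a log2 difference of -0.16. Cul3, whose product is the scaffold of the ubiquitin ligase that removes WNK kinases, was at -0.09. Calcoco1, which was in the list but whose role in this control was not checked here, was at 0.24. Wnk1, Wnk4, Stk39 and Klhl3 had no assigned peak.

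Other genes of the distal convoluted and connecting tubule had peaks at 6 of 30 symbols, with a median of 0.09 and 4 values above 0. The largest value was at Cnnm2, which encodes a membrane protein of magnesium handling, with 32.3 ± 5.38 for vehicle and 43.0 ± 4.24 for myoglobin (log2 difference 0.41 ± 0.17, limma adjusted p = 0.575). Atp2b1, a plasma membrane calcium pump gene, was at 0.28 ± 0.20, and at 0.072 without vehicle replicate 3.

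Genes that control the sodium channel, with Scnn1g left out, had 11 peaks at 10 of 24 symbols, with a median of -0.01 and 5 values above 0. Nedd4l encodes the ubiquitin ligase that removes the channel from the membrane, and its peak was at 21, 24, 22 and 19 in vehicle and 33, 37, 24 and 31 in myoglobin (replicates 1 to 4). The groups met at 24, and the log2 difference of 0.51 ± 0.21 (SE) did not pass (limma adjusted p = 0.565). Pik3ca, a kinase gene of the pathway upstream of SGK1, was at 0.61 ± 0.34 (limma adjusted p = 0.684), and at 0.34 without vehicle replicate 3. Nr3c2, the mineralocorticoid receptor gene, had 56.0 ± 1.83 for vehicle and 51.3 ± 5.97 for myoglobin (log2 difference -0.13 ± 0.14), and Prss8, a channel-activating protease gene, was at -0.24 ± 0.24. Mapkap1, an mTORC2 subunit gene, had the only groups of this list that did not overlap, at 13.8 ± 2.06 and 9.25 ± 2.36 (log2 difference -0.55 ± 0.31).

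Collecting duct genes had 4 peaks at 3 of 26 symbols, all 4 with values below 0 and a median of -0.20 when all libraries were fitted. The 2 peaks of Grhl2, an epithelial transcription factor gene, were at -0.51 ± 0.43 and -0.15 ± 0.32 (the latter 0.044 without vehicle replicate 3), Hoxb7 at -0.24 ± 0.22 and Tfcp2l1 at -0.08 ± 0.29. None passed (lowest limma adjusted p 0.844).

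In the pathway of Herpud1, the degradation of misfolded proteins of the endoplasmic reticulum, 17 peaks at 15 of 35 symbols had a median of -0.14, with 7 values above 0. The related gene Herpud2 had means of 41.3 ± 2.63 with vehicle and 33.8 ± 12.0 with myoglobin (log2 difference -0.35 ± 0.19), and the difference was -0.11 without myoglobin replicate 3 and 0.013 without myoglobin replicates 2 and 3. Stt3b, an oligosaccharyltransferase subunit gene, was at -0.53 ± 0.27 (limma adjusted p = 0.649) with its second peak at 0.37 ± 0.41 (0.15 without vehicle replicate 3). Edem3, whose product trims mannose from misfolded glycoproteins, was at 73.3 ± 6.90 and 61.3 ± 2.22, with groups that did not overlap (log2 difference -0.25 ± 0.13, limma adjusted p = 0.655). The ubiquitin ligase gene Syvn1 and the gene of its partner Sel1l were at -0.31 ± 0.41 and 0.05 ± 0.19.

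Sensors, transcription factors and chaperones of the unfolded protein response had 21 peaks at 21 of 36 symbols, with a median of 0.00 and 10 values above 0. Ppp1r15b, which encodes a subunit of the phosphatase that reverses the phosphorylation of eIF2 alpha, had 31.8 ± 3.86 for vehicle and 42.0 ± 4.40 for myoglobin (log2 difference 0.39 ± 0.17, limma adjusted p = 0.589). The chaperone genes Hspa5 and Dnajc3 were at 0.23 ± 0.18 and -0.35 ± 0.22, and Hspa5 at 0.045 without vehicle replicate 1. Xbp1 and Ddit3, transcription factor genes of the response, were at 0.31 ± 0.26 and -0.03 ± 0.19. Atf4 and Atf6 had no assigned peak.

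**Figure D4:**
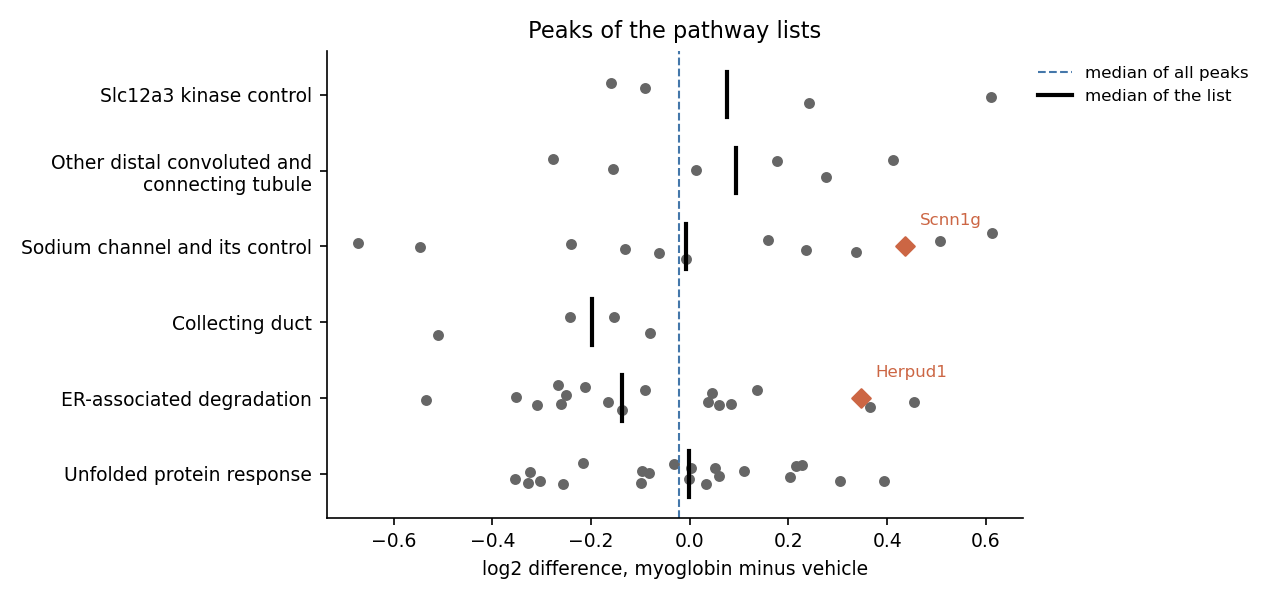
Log2 difference, myoglobin minus vehicle (x axis), of each peak in the 6 pathway lists (y axis, points spread vertically only so that they can be seen). Black bars are list medians, the dashed line is the median of all peaks, and diamonds are Scnn1g and Herpud1, which are not counted in their lists. List medians lie between -0.20 and 0.09.

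Cell types could be checked against few defining markers, since many markers had no assigned row. Of all peaks, 64.8% are within 1000 bp of a start site. Of 7 markers of epithelium in general, Cdh1, Cdh16, Epcam and Pax2 had an assigned peak. Scnn1g was the only one of 8 principal cell markers with a row, and 0 of 7 distal convoluted tubule markers had one assigned, as the Slc12a3 peaks have no gene in the table. Of the other tubule segments, 1 of 13 proximal tubule markers had a row (Cryl1), and 0 of 6 loop of Henle and 0 of 5 intercalated cell markers. Endothelial (0 of 7), fibroblast and pericyte (0 of 8), immune (0 of 8) and podocyte (0 of 5) markers had none. Whether the share of distal cells differed between the groups was not tested.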

How the data were processed

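ATAC-seq measured open chromatin in 8 libraries of mouse tubuloids. Per the submitters' processing notes, the build was mm10 and the tools named were featureCounts, DESeq2 1.36.0, Trimmomatic 0.39, Picard 3.0.0 and STAR 2.7.10a; what each did, the peak caller, duplicate handling and any Tn5 shift are not given in the sources used here. The deposited values are a score: the authors scaled reads per peak between libraries and rounded them to whole numbers, in one peak set for all libraries. Totals ran from 124415 to 126782. The uneven filling of whole numbers gave the factor of each column (0.62 to 1.86 per read) by maximum likelihood, hence estimated reads. Large factors leave whole numbers skipped, and small factors let several read counts fall on the same whole number. The estimate and the fit were tested on simulated data.

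limma 3.58.1 (R 4.3.3) was fitted to log2(value + 1) of all 6425 peaks without a filter, with a single term for treatment and a mean-variance trend in the moderated variances, and p-values were adjusted by Benjamini-Hochberg with a threshold of 0.05. A fold on this scale understates changes of low peaks. Ratios of reads used exact binomial intervals. The members, lists and naming rule (the 2 smallest p per list, any called peak, 18 genes always named where a peak existed, the 3 most alike peaks, neighbours within 500000 bp) were chosen with earlier results of these data known; Prss8, Mapkap1, Tfcp2l1, Herpud2 and the second peaks of Grhl2 and Stt3b were named after their values were seen, and the 5 peaks are described without tests. The DNA motifs, and with them the promoter peaks named under other observations, were chosen after the values were seen. Coordinates are those of the deposited table or of RefSeq GRCm38.p6, which held promoter windows for all 3 coding genes. Alternatives were other scalings, pseudocounts of 0.1 and 5, a filter at a mean of 10, each library left out, myoglobin replicates 2 and 3 left out together, and the replicate number as a block. The values of 1 listed gene are not reported here.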

Additional observations from a re-analysis of the deposited data

Results flagged for a closer look

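Sets of 4 libraries were checked at the 5 peaks and at the 26 pathway peaks named with values in the Results, 62 sets in all. Peaks named only under other observations were not included. In 5 of the 62 sets a single library stood apart by Dixon's criterion (its gap to the nearest value took up most of the range of the group). Chance gives about 1 in 20 sets, or 3.1 here, for continuous values. Small whole numbers raise that rate, since any value away from 3 equal ones is picked out. At the end peak of Slc12a3, vehicle replicate 3 was at 10 against 3, 4 and 4. At Scnn1g the same library was at 23 against 13, 14 and 14, and at Pik3ca it was at 4 against 10, 9 and 10. At Herpud1, vehicle replicate 2 was at 18 against 21 in each other vehicle library. At Ddit3, myoglobin replicate 2 was at 40 against 30, 28 and 29. Without vehicle replicate 3, the log2 difference was 2.46 at the end peak of Slc12a3 (from 2.14), 0.61 at Scnn1g (from 0.44) and 0.34 at Pik3ca (from 0.61).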

How the results depend on the processing

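The log2 difference of the end peak of Slc12a3 was 1.57 with a pseudocount of 5, which shrinks low values by construction, and 1.97 to 2.46 with 1 library left out. Those of Herpud1 (0.29 to 0.38) and Scnn1g (0.35 to 0.61) kept their sign in each such fit, and so did the inner peak of Slc12a3 (-1.04 to -0.49), while that of Gm15889 lay on both sides of 0 (-0.18 to 0.20). The number of peaks called was 16, 9 with a pseudocount of 0.1, 21 with a pseudocount of 5, 19 without myoglobin replicates 2 and 3, and 7 to 15 with 1 library left out (7, 9 and 8 without vehicle replicates 1, 2 and 4); the cause was not tested. The calls lower with myoglobin, 3 of the 16, numbered from 0 (without vehicle replicate 1 or 3) to 7 (without myoglobin replicates 2 and 3). With the replicate number as a block, 10 peaks were called, 9 higher and 1 lower with myoglobin. Deviations of same-numbered libraries had correlations of -0.01 to 0.03 over peaks, against -0.06 to 0.04 for libraries of unlike number. Not every library correlated best with its own number. Counting noise at these depths can hide a shared mouse, so these values do not show whether equal numbers share one. In the 6 lists, 0 peaks were called in each alternative run. With 1 library left out, the differences of Cul3 (-0.21 to 0.090), Ddit3 (-0.14 to 0.071), Sel1l (-0.084 to 0.13) and the second Grhl2 peak (-0.37 to 0.044) changed sign, and that of Herpud2 did so without myoglobin replicates 2 and 3 (0.013). Estimated reads of 1 to 23 per library at the Slc12a3 peaks limit what could be seen there.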

Other observations

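Other promoters with elements of the unfolded protein response were looked at after the matches at Herpud1 were seen. The stress element II and the ATF4 element matched in the Herpud1 window, and the first stress element had no exact match. The printed Herpud1 stretch ends with CCAAT, 9 bases and CCAC, so it falls short of the first element in the last base alone. Of the 12 promoter windows with the stress element II, 5 had a peak over them, at Herpud1, Rbm39, Lrif1, Dnajb11 and Rcl1. Herpud1 prompted the search, and the other 4 had log2 differences of 0.37, 0.14, 0.24 and 0.12, all above 0, as were 1665 of the 3409 peaks over any promoter window. Of the 5, 0 passed by limma, with 0 at an unadjusted p under 0.05 (0.249% of all peaks passed). Dnajb11, an endoplasmic reticulum co-chaperone gene, went from 26.3 to 31.8. The first stress element (CCAAT and CCACG with 9 bases between them, in 39 windows) had 11 peaks over its windows, 7 of them above 0, with a median of 0.05, and 0 passed by limma, with 1 at an unadjusted p under 0.05. That peak, over the Hnrnpa3 window, had the largest difference of the 11 and was lower with myoglobin (18 to 12.5, log2 difference -0.61, limma adjusted p = 0.615). Peaks of chaperone genes were at 0.23 (Hspa5), 0.06 (Calr), 0.00 (Hsp90b1), -0.33 (Canx) and -0.35 (Dnajc3). The ATF4 element (TGATGNAA) had 54 peaks over its 1304 windows, 27 of them above 0, with a median of 0.00. The 3409 peaks over all promoter windows had a median of -0.01.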
